A study of Oryza sativa with 24 samples.

Results

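Roots and shoots of the rice genotype Dular were compared after growth with almost no phosphate (Pi). The comparison took the 3 Dular root arrays against the 3 Dular shoot arrays at −Pi, 6 of the 24 arrays of the series, and covered all 57258 probe sets of the Affymetrix rice genome array other than the control ones. Dular is a traditional genotype described as tolerant to low Pi. Seedlings stood in nutrient solution with 1 µM Pi (−Pi) or 320 µM Pi (+Pi) for 15 days, when roots and shoots were harvested apart, and each RNA sample pooled the tissue of 3 seedlings. The −Pi groups were Dular root and Dular shoot. They were set beside Dular root and Dular shoot at +Pi, and beside root and shoot at −Pi of PB1, a modern genotype described as sensitive to low Pi, with 3 biological replicates in every group. The labels do not say whether a root and a shoot sample with the same number came from the same seedlings. One label field calls every sample whole seedling, whereas titles and descriptions name the tissue, and the titles were followed.

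A rice seedling divides its work between organs. Leaves hold the chloroplasts, fix carbon, make chlorophyll and load sugar for export, and the root takes up water and mineral ions, meets microbes, and builds the Casparian strip and a thickened wall that control what enters the vascular tissue. When Pi runs short, the PHR transcription factors switch on genes for Pi uptake, for the release of Pi from phospholipids and nucleic acids, and for the SPX proteins that sense inositol pyrophosphates and restrain PHR, while the noncoding RNA IPS1 sequesters the microRNA miR399.

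Values are log2 signals, which the authors set to a median of 0 across arrays for every probe set. A value of 0 is the middle of that probe set's own values, and only differences between arrays can be read. The files do not tell which signals lay above background, so a difference can be limited by background in the lower tissue. Each difference is log2 root minus log2 shoot with its standard error (SE) from limma, on n = 3 arrays per group. Calls required both a 2-fold difference and an adjusted p no larger than 0.05. Arrays of a group correlated across probe sets at r 0.938 to 0.963 in Dular root and 0.910 to 0.917 in Dular shoot at −Pi. In PB1 shoot at −Pi r was 0.577 to 0.913, and the second array of that group deviated most from its group mean (root mean square 0.542, against 0.153 to 0.340 on the other 23 arrays). The hybridization control BioB differed by -5.10 to -4.53 between PB1 root and shoot at −Pi, and by -0.44 to -0.13 between Dular root and shoot at −Pi. In Dular root at +Pi, a control probe set for the elongation factor of the blast fungus Magnaporthe read 3.40, 3.21 and 0.02, whereas its mean was 0.09 in Dular root and 0.01 in Dular shoot at −Pi. Another probe set of this factor read 2.60, 2.26 and 0.48 in Dular root at +Pi, and -0.00, 0.48 and 0.11 in Dular root at −Pi. Those for its 5′ end and middle averaged 0.01 and 0.04 in Dular root at +Pi. Counts without the PB1 array and with the third +Pi root array alone stand beside the comparisons they touch, and the part of BioB in the comparison with PB1 was not tested.

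Limma called 9601 of 57258 probe sets (16.8%) between Dular root and shoot at −Pi, of which 4840 (8.45%) were higher and 4761 (8.31%) lower in root. With 1 probe set for each of the 17905 genes that the annotation names, 5402 genes (30.2%) were called, 2734 higher (15.3%) and 2668 lower (14.9%). The median difference was 0.00 over all probe sets and 0.04 over genes, and the called differences had a median size of 2.22 on the log2 scale. Differences of at least 16-fold were called for 1969 probe sets, 833 higher and 1136 lower in root. Root and shoot arrays did not overlap in 36.1% of all probe sets, and they overlapped in 68 of the called ones.

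Among genes with a symbol, Lsi2 and PIP2;7 had the largest differences on the first probe set of each gene. A second probe set of the aquaporin gene TIP2;1 gave a larger one (12.72 ± 0.71). Lsi2, which encodes the transporter that exports silicon from root cells toward the xylem, read 6.24, 6.48 and 6.19 in root and -6.26, -6.30 and -5.54 in shoot (difference 12.34 ± 0.27, adjusted p = 3.78e-16). PIP2;7, an aquaporin gene, was the mirror image, with -5.76, -6.29 and -6.27 in root and 6.17, 5.63 and 6.09 in shoot (-12.07 ± 0.19, adjusted p = 5.34e-18). The largest differences of all were in unnamed genes, 13.31 in LOC4330226, which was higher in root, and -13.00 in LOC4349605, which was lower.

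Other strong root genes were PRX112 of a class III peroxidase (10.27), Nrat1 of an aluminium transporter in the plasma membrane (9.24), GLU5 of an endoglucanase (8.99), hox14 of a homeodomain factor (7.60) and BGLU34 of a beta-glucosidase (7.56). On the shoot side stood BURP3 (-9.18), a gene of the BURP domain family, LTP of a lipid transfer protein (-9.07), APY3 of an apyrase (-9.00), and the glutaredoxin genes GRXC15 (-8.66) and GRXC1 (-8.23). All 10 of these differences were called, and their root and shoot arrays did not overlap. They were taken from the 15 largest differences each way among genes with a symbol, a restriction added after the values were seen.

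**Figure D1:**
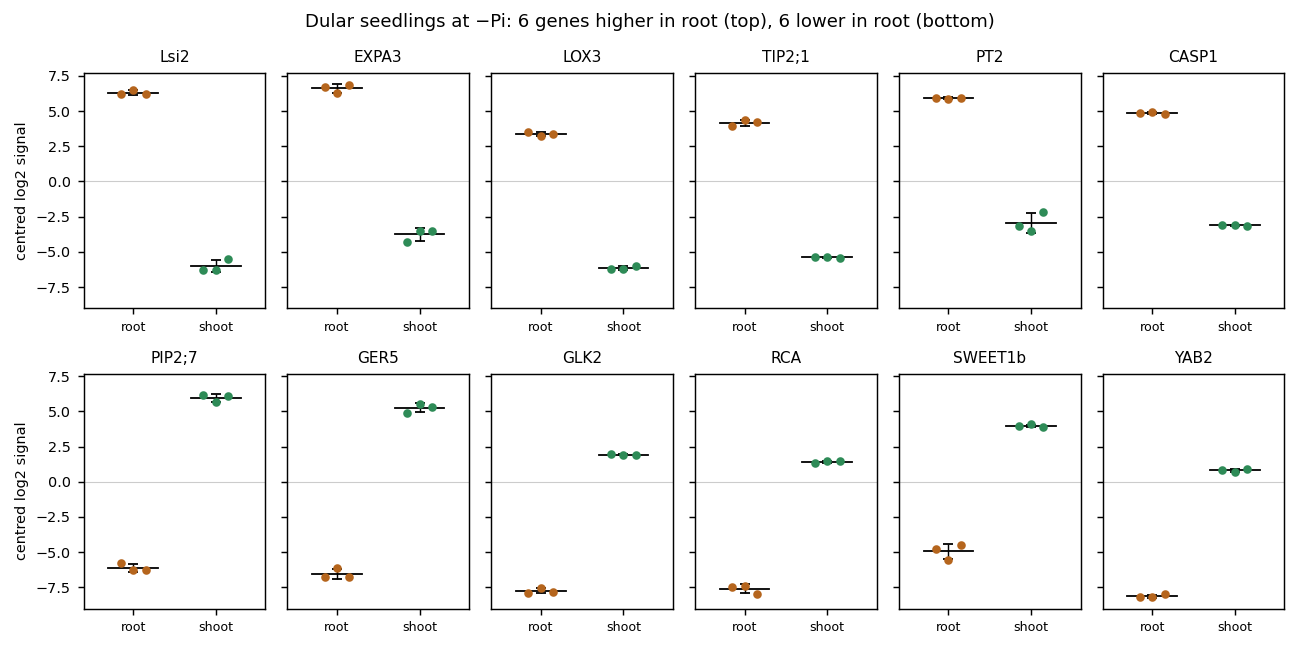
Centred log2 signal of 12 genes on the 3 root and 3 shoot arrays of Dular at −Pi (dots, 1 per array), with the mean (line) and SD (bars). The upper 6 genes were higher in root by 7.97 (CASP1) to 12.34 (Lsi2) on the log2 scale, and the differences of the lower 6 lay between -12.07 (PIP2;7) and -8.92 (SWEET1b), with no overlap between the tissues.

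Counts of called members set the gene lists apart. Of the 676 genes in 36 lists, 272 were called. The lists that leaned furthest to shoot were those of the chloroplast. Apart from the genes that the study names, the lists with the largest shares higher in root were silicon transport, germin-like proteins, cellulose synthases, and nitrate and ammonium transport. Counts below of genes called between Dular root and shoot at −Pi are to be read against the 15.3% of genes called higher and 14.9% called lower. Lists are described by counts and medians and were not tested as sets.

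**Figure D2:**
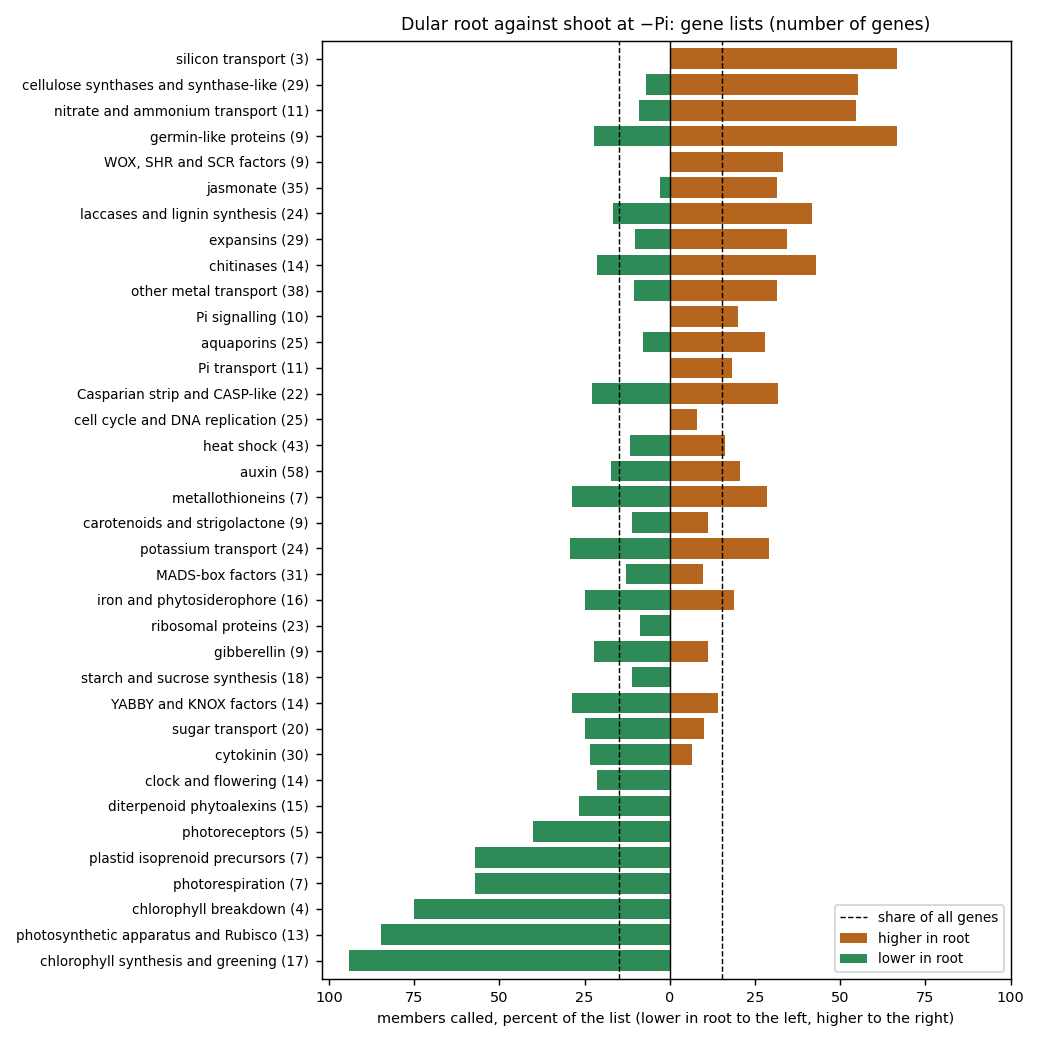
Share of the members of each gene list called higher (right) or lower (left) in Dular root than shoot at −Pi, in percent, with the number of genes in parentheses. Dashed lines mark the shares over all genes, 15.3% higher and 14.9% lower. Of 17 chlorophyll synthesis and greening genes 16 were lower, and of 29 cellulose synthase and synthase-like genes 16 were higher.

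The photosynthesis list lay on the shoot side. Of 13 genes of the photosynthetic apparatus and Rubisco, 11 were called lower in root and none higher, with a median of -3.36. RCA, whose product Rubisco activase keeps the carbon-fixing enzyme open, read -7.47, -7.39 and -7.97 in root and 1.35, 1.46 and 1.46 in shoot. That is a difference of -9.03 ± 0.17 (adjusted p = 3.18e-17), or 524-fold. LFNR1, the ferredoxin-NADP reductase of leaves, was lower by 6.19 on the log2 scale, with -4.30, -4.03 and -3.96 in root and 2.34, 1.89 and 2.05 in shoot. The Rubisco small subunit gene RBCS-C (-4.63) and the light-harvesting genes RCABP69 (-4.49) and RCABP89 (-3.96) followed. The members not called were CAB2R (-0.90) and RBCS1 (-0.18), and the fourth of the probe sets for RBCS-C gave -0.07.

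Chlorophyll synthesis and greening had the largest share of called members, 16 of 17 lower in root with a median of -2.59, and HEMD (-0.98) was the one not called. GLK2, a transcription factor of chloroplast development, read -7.87, -7.54 and -7.84 in root and 1.94, 1.90 and 1.88 in shoot (-9.65 ± 0.40, adjusted p = 1.08e-12). Its paralogue GLK1 differed by -4.42. PORA, the light-dependent protochlorophyllide reductase, had root values of -4.18, -3.68 and -3.21 and shoot values of 1.30, 3.05 and 1.94 (-5.79 ± 0.80). CHLH, the large subunit of magnesium chelatase, was lower by 3.73 on the log2 scale. Chlorophyll breakdown was on the same side. NYC1 (-3.34) and NOL (-2.15), which reduce chlorophyll b, and RCCR1 (-3.12), a reductase of red chlorophyll catabolite, were called lower, 3 of 4 members.

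Photorespiration and nitrogen reassimilation in leaves were represented by 7 genes, of which 4 were lower in root and none higher. GLO5, a glycolate oxidase gene, read -3.22, -3.18 and -2.98 in root and 3.83, 3.56 and 3.73 in shoot (-6.83 ± 0.19, adjusted p = 5.72e-15). The plastid glutamine synthetase gene GLN2 differed by -5.10, GLO1 by -4.69 and Fd-GOGAT, the ferredoxin-dependent glutamate synthase, by -1.97. Probe sets of 2 members disagreed. A second GLO1 probe set gave 0.71 in place of -4.69. For GDCSH, the H protein of glycine decarboxylase, the first probe set gave -0.53 (adjusted p = 0.135) and the second -9.30 (adjusted p = 2.68e-11).

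Further lists were called in part. Among 7 genes of plastid isoprenoid precursors 4 were lower, led by ISPH (-2.35), the last enzyme of the plastid pathway. Of 5 photoreceptor genes, the blue-light receptor PHOT2 (-3.72) and the phytochrome PHYC (-1.05) were lower, the second of these just past 2-fold. In the clock and flowering list 3 of 14 were lower, the pseudo-response regulators PRR95 (-2.73), PRR37 (-2.67) and PRR73 (-1.04). PHYC came to -0.94 without the second shoot array, and PRR73 to -0.79 without the third root array and -0.99 without the second shoot array, all short of 2-fold, and a second PRR73 probe set gave -0.37. Starch and sucrose synthesis stayed near the background, with SUS4 of sucrose synthase (-3.23) and AGPS2 of the small subunit of ADP-glucose pyrophosphorylase (-2.65) lower and 16 of 18 not called.

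Sugar transporters showed 5 of 20 lower and 2 higher. SWEET1b of a sugar facilitator differed by -8.92, with -4.75, -5.54 and -4.52 in root and 3.95, 4.07 and 3.92 in shoot. SWEET11, a sucrose exporter gene, was lower by 8.75, SUT1, which loads sucrose into the phloem, by 2.73, and TPT, the chloroplast triose phosphate translocator, by 2.03. A second TPT probe set gave -0.01.

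Mineral transport genes were called on both sides. Iron and phytosiderophore genes gave 3 higher and 4 lower of 16, with a median of 0.15. IRT1, the ferrous iron uptake transporter, read 6.47, 6.73 and 6.38 in root and 0.11, -0.29 and -0.45 in shoot (6.74 ± 0.52, adjusted p = 7.22e-09). NRAMP5, which carries manganese, iron and cadmium into roots, was higher by 4.42. On the shoot side were FRO1 of a ferric reductase (-4.99) and the vacuolar iron transporters VIT2 (-2.15) and VIT1 (-2.11). NAS1, NAS2 and YSL15, of the grass strategy of chelating ferric iron with secreted phytosiderophores, were not called at −Pi in the fit of all arrays. NAS1 and NAS2, of nicotianamine synthase, had differences of 0.56 ± 0.62 and 0.58 ± 0.92 (adjusted p = 0.793 and 0.990), and YSL15, which takes up the ferric chelate, 1.63 ± 0.75 (adjusted p = 0.133). YSL15 was called with only the 6 arrays (adjusted p = 0.00119) or only the 12 Dular arrays (adjusted p = 0.00143). With array weights the differences were 1.58 in YSL15 and 1.55 in NAS1. That estimate stopped before convergence. It gave Dular root array 2 at −Pi a weight of 56.6, against 1.03 and 0.63 for arrays 1 and 3. NAS1 read highest of its group on array 2, so its weighted difference rests mainly on that array. No call is drawn from the weighted values here.

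Among 38 other metal transport genes 12 were higher and 4 lower in root. The zinc transporters ZIP1 (4.92) and ZIP5 (3.08) and the zinc and cadmium ATPase HMA2 (3.39) were higher. ZIP3, a zinc transporter of vascular tissue, was lower, with -4.58, -3.97 and -4.06 in root and 3.35, 3.55 and 3.62 in shoot (-7.71 ± 0.86, adjusted p = 8.63e-07).

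Nitrate and ammonium transport leaned to root, with 6 of 11 higher, 1 lower and a median of 1.31. The ammonium transporter gene AMT2-2 read 4.16, 4.46 and 4.26 in root and -1.61, -1.71 and -1.71 in shoot (5.97 ± 0.29, adjusted p = 1.07e-11). NRT2.3 (4.21), a high-affinity nitrate transporter, AMT1-2 (3.17) and AMT3-2 (3.12) were higher as well. Of 3 silicon genes, Lsi1, the channel for silicon entry, read 3.21, 3.42 and 3.20 in root and -3.88, -4.16 and -3.86 in shoot (7.25 ± 0.14, adjusted p = 9.03e-17), beside Lsi2 above.

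Potassium transporters were split 7 higher to 7 lower of 24. Lower in root were HAK17 (-7.91), HAK27 (-7.87), HAK22 (-5.06) and HAK5 (-4.94), all of the HAK family of potassium carriers. A second probe set of HAK5 gave 0.08 in place of -4.94. Among 25 aquaporins 7 were higher and 2 lower. TIP2;1 of the vacuolar membrane read 3.92, 4.37 and 4.21 in root and -5.38, -5.40 and -5.41 in shoot (9.56 ± 0.15, adjusted p = 5.57e-18), whereas NIP1;1 was lower by 4.57, like PIP2;7.

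Wall and barrier lists had more members called higher than lower in root. CASP1, which marks where the Casparian strip is built in the endodermis, read 4.83, 4.93 and 4.78 in root and -3.07, -3.12 and -3.17 in shoot (7.97 ± 0.28, adjusted p = 1.05e-13). The CASP-like family divided, 7 higher and 5 lower of 22 with CASP1 included. CASPL1C1 (7.24) was on the root side, and CASPL2A1 (-7.49) and CASPL2C1 (-5.62) on the shoot side. Of 24 laccase and lignin synthesis genes 10 were higher and 4 lower. CAD8A (6.17), a cinnamyl alcohol dehydrogenase gene, and 4CL1 (4.88), of 4-coumarate CoA ligase, were higher, but 4CL2 (-4.88) and the laccase gene LAC20 (-4.42) were lower. The call of LAC20 was lost when only the 6 arrays were fitted (adjusted p = 0.0723), and its shoot arrays read 0.74, 5.79 and 3.41.

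Cellulose synthases and synthase-like genes gave 16 of 29 higher and 2 lower, with a median of 1.10. CSLC3, of the family that makes the xyloglucan backbone, read 4.08, 3.46 and 3.96 in root and -2.56, -3.17 and -3.72 in shoot (6.98 ± 0.30, adjusted p = 2.56e-12). CSLA1 (2.79), of a family that makes mannan, and CESA6 (2.32) of primary wall cellulose synthase were higher and CSLA9 (-3.04) lower. The other CESA genes had smaller differences. CESA4 (1.12), CESA7 (1.11) and CESA8 (1.35), named here after their values were seen, were called higher. Expansins, which loosen walls, were higher in 10 and lower in 3 of 29. EXPA3 read 6.70, 6.28 and 6.87 in root and -4.27, -3.50 and -3.50 in shoot (10.38 ± 0.35, adjusted p = 8.48e-14), EXPA8 was higher by 8.28 and EXPB8 by 5.88, and EXPA6 was lower by 6.05.

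Defence-related families differed in side. Chitinases, which cleave fungal walls, gave 6 higher and 3 lower of 14. Chib3H-a was higher by 5.50, whereas chia4a (-7.97), Cht4 (-6.79) and Cht11 (-3.57) were lower. Enzymes of diterpenoid phytoalexins, the antimicrobial compounds of rice, were lower in 4 of 15 and higher in none. CYP71Z6 read -0.77, -0.64 and -0.67 in root and 7.08, 6.72 and 6.85 in shoot (-7.58 ± 0.59), and the diterpene cyclase genes KSL7 (-7.13), CPS2 (-4.98) and KSL5 (-3.52) lay on the same side. Germin-like proteins, small wall proteins related to oxalate oxidase, were called in 8 of 9 members, 6 higher and 2 lower, with a median of 3.63. GER5 read -6.77, -6.13 and -6.75 in root and 4.91, 5.55 and 5.29 in shoot (-11.80 ± 0.45), GER8 was lower by 10.25, and GLP2 (5.70) and GER6 (4.38) were higher.

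Among hormone genes, the jasmonate list had the largest share called higher. Of 35 jasmonate genes 11 were higher and 1 lower, with a median of 0.76. LOX3, a lipoxygenase gene, read 3.49, 3.25 and 3.33 in root and -6.20, -6.23 and -6.00 in shoot (9.50 ± 0.62, adjusted p = 7.12e-10). AOS4 of an allene oxide synthase (8.93) and LOX1.1 (7.36) were higher as well, and LOX2.1 (-4.30) was the one lower. Auxin genes gave 12 higher and 10 lower of 58. The efflux carriers PIN2 (6.96), which directs auxin in root gravitropism, and PIN5 (4.49), and the conjugating enzymes GH3.2 (5.13) and GH3-8 (4.64) were higher. Cytokinin genes were higher in 2 and lower in 7 of 30. The activating enzymes LOGL10 (-4.21) and LOGL3 (-3.46) and the response regulator RR1 (-3.39) were lower. In the gibberellin list 1 of 9 was higher and 2 lower. The deactivating enzyme gene EUI was higher by 2.91, and KAO (-2.85), of an enzyme of gibberellin synthesis, and CYP701A8 (-3.75) were lower. The call of CYP701A8 was lost with only the 12 Dular arrays (adjusted p = 0.0758), without the second root array (adjusted p = 0.0561) and without the first shoot array (adjusted p = 0.0507). In the carotenoid and strigolactone list, the strigolactone enzyme gene CCD7 was higher (2.06) and PDS of phytoene desaturase lower (-1.13), and the other 7 of 9 were not called.

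Developmental regulators were called on both sides. YAB2, of the YABBY family of leaf polarity factors, read -8.21, -8.20 and -8.00 in root and 0.81, 0.66 and 0.93 in shoot (-8.94 ± 0.52, adjusted p = 1.42e-10), and YAB6 was lower by 7.68. HOS9 (8.79) and HOS16 (4.20), KNOX homeobox genes, were higher, so that 2 of 14 YABBY and KNOX genes were higher and 4 lower. WOX11, which promotes crown root formation in rice, read 3.73, 3.51 and 2.99 in root and -1.40, -0.60 and -1.19 in shoot (4.47 ± 0.35). WOX6 was higher by 5.13 on 1 probe set and by 0.01 on a second, and SHR1, of the SHORT-ROOT family, by 2.24, together 3 of 9. MADS-box factors gave 3 higher and 4 lower of 31, with MADS27 (5.67) and MADS26 (3.60) higher, and MADS57 (-3.75) and MADS58 (-2.44) lower. The call of MADS58 was lost when only the 6 arrays were fitted (adjusted p = 0.0624).

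Most cell cycle and ribosomal protein genes were not called. Of 25 cell cycle and replication genes 23 were not called, although 23 of 25 differences were above 0, and the cyclin CYCB2-1 (1.21) and the kinase CDKB2-1 (1.16) were just past 2-fold. Of 23 ribosomal protein genes 21 were not called, and RPL27 (-3.45) and RPL18 (-2.74) were lower. The symbols do not tell whether these 2 belong to the plastid ribosome. Heat shock genes were higher in 7 and lower in 5 of 43. HSP16.9B, a small heat shock protein gene, read -0.03, -0.29 and -0.01 in root and 6.24, 5.70 and 6.01 in shoot (-6.10 ± 0.38), whereas HSP23.2 (4.17) and HSF05 (2.30) were higher. HSP16.9A was lower by 2.44, a call lost without the first root array (adjusted p = 0.0926) or the third shoot array (adjusted p = 0.0927). Metallothioneins, small metal-binding proteins, were split, MT4C (5.50) and MT4A (2.36) higher, MT2C (-2.09) and MT2A (-1.22) lower, 2 and 2 of 7. A second MT2A probe set gave -0.01.

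Tissue labels were checked with 13 marker genes of green shoot and 13 of root. In Dular at −Pi, 11 shoot markers were lower and 7 root markers higher in root, and none was called against the label. NAS1, NAS2, NAAT1, YSL15, PT4 and the first probe set of PT8 were the root markers not called. The 3′ minus 5′ difference was taken over control probe sets of actin, glyceraldehyde-3-phosphate dehydrogenase and cyclophilin. In that order it was -0.10, 0.21 and -0.08 in Dular root and 0.09, -0.22 and -0.16 in Dular shoot at −Pi. Each control probe set was centred across arrays, so only gaps between groups can be read, not RNA integrity itself.

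The Pi starvation genes were examined in both tissues at −Pi. Regulators of the PHR type and their SUMO ligases did not differ by 2-fold between root and shoot. PHR1, PHR2 and PHR3 differed by 0.10 ± 0.08, -0.19 ± 0.07 and 0.23 ± 0.31, and SIZ1 and SIZ2 by 0.12 and -0.20. Among the SPX genes, SPX3 read 5.40, 5.36 and 5.37 in root and 2.39, 2.57 and 4.17 in shoot (2.33 ± 0.43, adjusted p = 0.000283). SPX5 read 4.98, 5.37 and 5.44 in root and 2.09, 2.36 and 3.81 in shoot (2.51 ± 0.30, adjusted p = 1.89e-06). SPX1 (0.42), SPX2 (-0.07) and SPX4 (0.26) were not called, so that 2 of 10 regulators were higher and none lower. The third shoot array was the highest of its group in SPX3 and SPX5. IPS1, the target mimic of miR399, read 4.60, 4.50 and 4.35 in root and 2.75, 3.41 and 3.53 in shoot (1.25 ± 0.21, adjusted p = 0.000126), a difference under 2-fold after quantile normalization (0.83).

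Pi transporters gave 2 of 11 higher and none lower. PT2, a low-affinity transporter of the PHT1 family, read 5.94, 5.86 and 5.94 in root and -3.16, -3.50 and -2.14 in shoot (8.84 ± 0.34, adjusted p = 5.36e-13). PT6, a high-affinity transporter, read 6.61, 6.55 and 7.09 in root and 0.01, -0.08 and 0.66 in shoot (6.55 ± 0.38, adjusted p = 1.38e-10). PT1 (0.77, called at 1.12 without the second root array), PT4 (0.44) and PT7 (0.46) were not called, and the first probe sets of PT3, PT11 and PT12 stayed within 0.06 of 0 on each of the 6 arrays. Another PT3 probe set read 0.81, 0.05 and 0.76 in root and 0.02, -0.00 and 0.15 in shoot (0.48, adjusted p = 0.00493), under 2-fold. The probe sets of PT8 disagreed. Its first one lay at 0, whereas the other two were higher by 2.29 and 2.28 (adjusted p = 3.52e-05 and 1.37e-05), with 3.10, 2.73 and 2.73 in root and 0.28, 0.03 and 1.37 in shoot on the second. PHO1-2, the Pi exporter gene of xylem loading, likewise lay at 0 on its first probe set and was higher by 4.37 on its second (adjusted p = 4.96e-13). PHO1-3 differed by -0.81 ± 0.42 (adjusted p = 0.207). A second PT1 probe set gave 1.34 (adjusted p = 3.38e-05).

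Genes that the study names were paired with probe sets through a table at hand that lists only rises in Dular roots at −Pi, so that the choice itself favours higher root values. Of 11 such genes of phospholipid turnover, 9 were higher in root at −Pi and none lower, with a median of 1.36. The phospholipase D gene Os06g40180 read 3.10, 1.97 and 2.38 in root and -3.73, -4.45 and -3.72 in shoot (6.45 ± 0.72), and the acyltransferase gene Os05g38350 was higher by 2.63. Os05g38720 (2.34), annotated as a transmembrane receptor domain protein, the glycerophosphodiester phosphodiesterase genes Os08g42390 (1.73), Os02g31030 (1.24) and Os03g40670 (1.22), the phospholipase genes Os06g40170 (1.64) and Os03g30130 (1.28) and the acyltransferase gene Os01g19390 (1.36) were nearer to 2-fold. The call of Os06g40170 was lost in 8 alternatives and that of Os03g40670 in 5.

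Galactolipid and sulfolipid synthesis, which replaces phospholipids in membranes, was called in 3 of 6 genes. Os08g20420, annotated as the monogalactolipid synthase MGD2, read 6.38, 6.14 and 6.39 in root and 2.72, 3.90 and 4.88 in shoot (2.47 ± 0.35, adjusted p = 1.75e-05). The glycosyl transferase gene Os07g01030 (-1.12) and the epimerase gene Os05g32140 (-1.11) were lower in root, the second short of 2-fold without the third shoot array (-0.92). The digalactolipid synthase genes Os04g34000 (-0.22) and Os03g11560 (0.82) and Os01g04920 (0.65) were not called.

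Of 6 phosphatase and RNase genes 2 were higher. Os10g02750, annotated as a Ser/Thr protein phosphatase, had the sharpest contrast of the Pi genes, with 9.99, 9.81 and 9.71 in root and 0.02, 0.00 and 0.01 in shoot (9.83 ± 0.15, adjusted p = 4.49e-18), or 909-fold. The phosphocholine phosphatase gene Os01g52230 was higher by 1.29, with a call lost in 9 alternatives. The purple acid phosphatase gene Os08g17784 (0.41) and 3 RNase genes (0.22 to 0.84) were not called, but 1 of them, Os08g33710, was at 1.11 without the third shoot array. In carbon metabolism, the NADP-dependent oxidoreductase gene Os12g12590 read 4.62, 5.96 and 5.09 in root and 0.00, -0.07 and -0.03 in shoot (5.26 ± 0.37, adjusted p = 1.73e-09). The citrate transporter gene Os10g31040 was on the other side, with -2.05, -2.94 and -2.38 in root and 2.91, 2.65 and 2.69 in shoot (-5.20 ± 0.28). A PPi-dependent phosphofructokinase gene, Os06g22060, was lower by 1.11 (-0.90 after quantile normalization), and Os02g48360 (0.97, called at 1.01 and 1.10 without the first or second root array), Os09g14670 (0.56), Os08g33720 (0.40) and Os04g46560 (0.75) were not called. Of 3 xyloglucan remodelling genes, Os07g34580 was higher (2.81), Os06g48200 lower (-4.08), and Os04g51460 varied too much between arrays to be read, with -0.55, -6.23 and -6.90 in root and -6.22, -5.03 and -1.38 in shoot.

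The same organ comparison was made at +Pi, to ask whether the organ contrast differed with Pi supply. At +Pi, 9266 probe sets were called (16.2%), and by gene 12.8% were higher and 16.1% lower in root. Of the calls, 7300 were shared in direction, 76.0% of those at −Pi and 78.8% of those at +Pi, and 40 were opposite. The difference between the organ contrasts at −Pi and +Pi, which share no array, was called for 2731 probe sets (4.77%), 1374 above 0 (2.40%) and 1357 below 0 (2.37%). By gene the share was 8.22%, with 4.27% above 0 and 3.95% below. Of the 2731 probe sets, 2019 were also called between −Pi and +Pi in root alone, 309 in shoot alone, 140 in both and 263 in neither. Among 1381 that were called in both organ contrasts in 1 direction, 1007 had the larger contrast at −Pi.

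**Figure D3:**
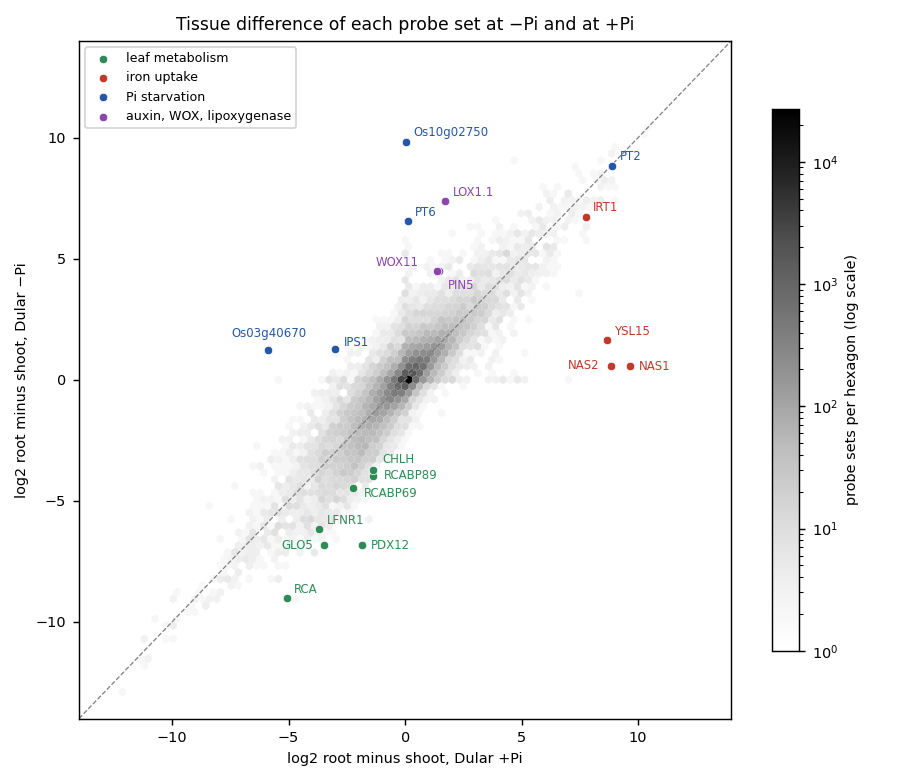
Log2 root minus shoot in Dular at −Pi (vertical) against that at +Pi (horizontal) for 57258 probe sets, as hexagons shaded by their number, with genes named in the text as dots. RCA lies below the dashed line of equality (-9.03 against -5.08), NAS1 far to the right of it (0.56 against 9.66), and PT6 and Os10g02750 high above it (6.55 against 0.10 and 9.83 against 0.03).

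Photosynthesis genes were further apart between the organs at −Pi than at +Pi. Over all genes, 3.95% of organ contrasts were called lower at −Pi than at +Pi and 4.27% higher. In 8 of 13 photosynthesis genes the organ contrast was called lower, and in none higher. The medians over their group means were -2.51 in root and 0.74 in shoot at −Pi, and -0.81 in root and 0.83 in shoot at +Pi, so the larger shift lay in root. In RNA of whole organs, fewer cells of a type and less RNA per cell cannot be told apart. RCA read -3.28, -3.78 and -3.96 in root and averaged 1.41 in shoot at +Pi, and its organ contrast was larger at −Pi by -3.95 ± 0.23 (adjusted p = 7.58e-09). The same difference was -2.50 for LFNR1, -2.59 for RCABP89, -2.24 for RCABP69 and -1.88 for RBCS-C, the last not called with only the 12 Dular arrays (adjusted p = 0.0701) or with the third +Pi root array alone in its group (adjusted p = 0.102). It was called in 6 of 17 chlorophyll synthesis and greening genes, all below 0, with -2.34 in CHLH and -1.86 in GLK1, whereas GLK2 (-0.69, adjusted p = 0.380) was not. The probe sets of CHLH disagreed, since a second one had contrasts of -1.24 at −Pi and -2.45 at +Pi, the opposite order. GLO5 of photorespiration had -3.36 and PDX12, a gene of vitamin B6 synthesis, -4.98. At −Pi PDX12 read -5.34, -5.50 and -5.72 in root and 1.55, 1.10 and 1.32 in shoot.

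**Figure D4:**
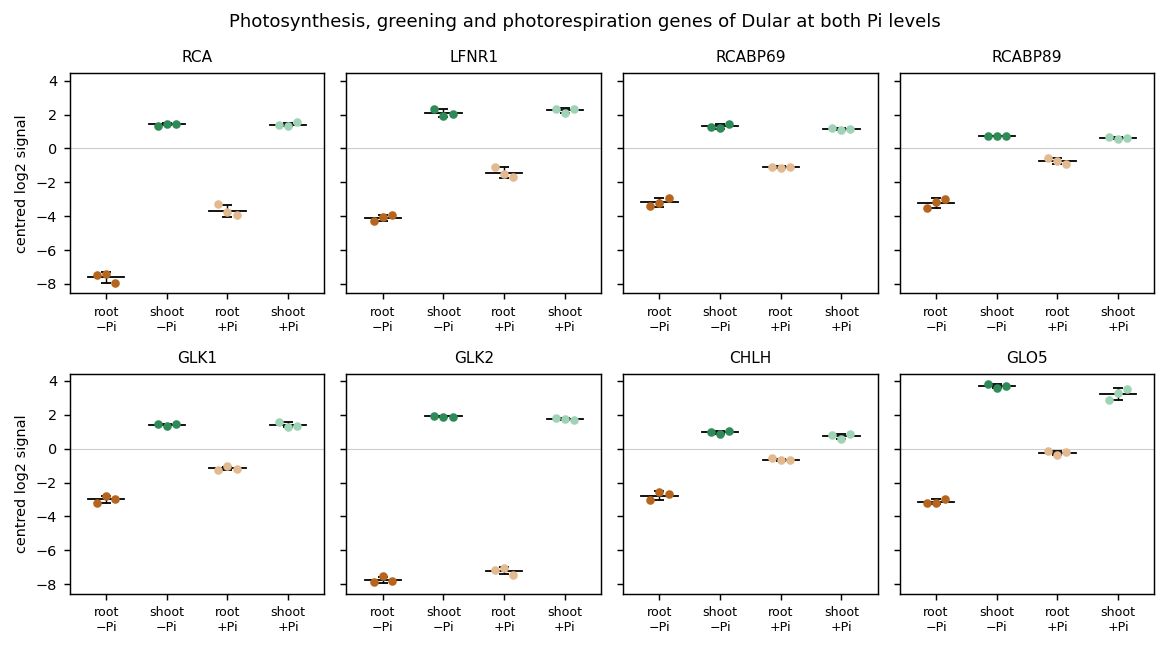
Centred log2 signal of 8 photosynthesis, greening and photorespiration genes in Dular root and shoot at −Pi and at +Pi (dots, 1 per array, with mean and SD). Shoot values lay close together at both Pi levels. Root values of RCA averaged -7.61 at −Pi and -3.67 at +Pi, and those of GLK2 averaged -7.75 at −Pi and -7.21 at +Pi.

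Among iron genes more contrasts were lower than higher at −Pi. Of 16 iron and phytosiderophore genes the organ contrast was lower at −Pi than at +Pi in 6 and higher in 1. Over all genes the shares were 3.95% and 4.27%. NAS1 read 0.00, 1.53 and 0.01 in root at −Pi, and 9.76, 9.36 and 9.67 in root at +Pi, with shoot values between -0.06 and -0.01 at −Pi. Its organ contrast was 0.56 at −Pi and 9.66 at +Pi, a difference of -9.10 ± 0.88 (adjusted p = 2.03e-06). NAS2 (0.58 against 8.84, difference -8.26, adjusted p = 0.000402) and YSL15 (1.63 against 8.67, difference -7.03, adjusted p = 0.000270) went with it. IRT1 was not called, with 6.74 at −Pi and 7.76 at +Pi (difference -1.03 ± 0.74, adjusted p = 0.313), although the difference was called with only the 12 Dular arrays (adjusted p = 0.0432). The 2 arrays that read 3.40 and 3.21 on the fungal control belong to the +Pi root group used here. The third array of that group read 0.48 on another probe set of the same factor. With the third array alone in that group, a setting chosen after seeing the data, the 3 differences were -9.18, -8.36 and -7.14, each still called, and 1978 probe sets were called in all.

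Several Pi genes had a larger organ contrast at −Pi. PT6 had an organ contrast of 6.55 at −Pi and 0.10 at +Pi (difference 6.45 ± 0.54, adjusted p = 4.03e-07), and Os10g02750 9.83 at −Pi and 0.03 at +Pi (9.80 ± 0.22, adjusted p = 9.71e-15). PT2 kept its contrast, 8.84 at −Pi and 8.90 at +Pi. IPS1 was on the root side at −Pi (1.25) and on the shoot side at +Pi (-3.00), a difference of 4.25 ± 0.30, and so was Os03g40670, with 1.22 at −Pi and -5.91 at +Pi (7.13 ± 0.51). Os01g52230 likewise had 1.29 at −Pi and -1.72 at +Pi (3.01). Os12g12590 (4.65) and Os08g20420 (2.50) had larger contrasts at −Pi. After quantile normalization the values of Os01g52230 (0.94, adjusted p = 0.474) and Os08g20420 (1.77, adjusted p = 0.0778) were not called, and with only the 12 Dular arrays Os01g52230 had adjusted p = 0.0512. SPX3 (1.95, adjusted p = 0.0576) and SPX5 (-0.61) were not called, and in the Pi signalling list none of 10 contrasts was called as different between the Pi levels. The choice of the study's genes by their rise in Dular roots favours these values too.

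**Figure D5:**
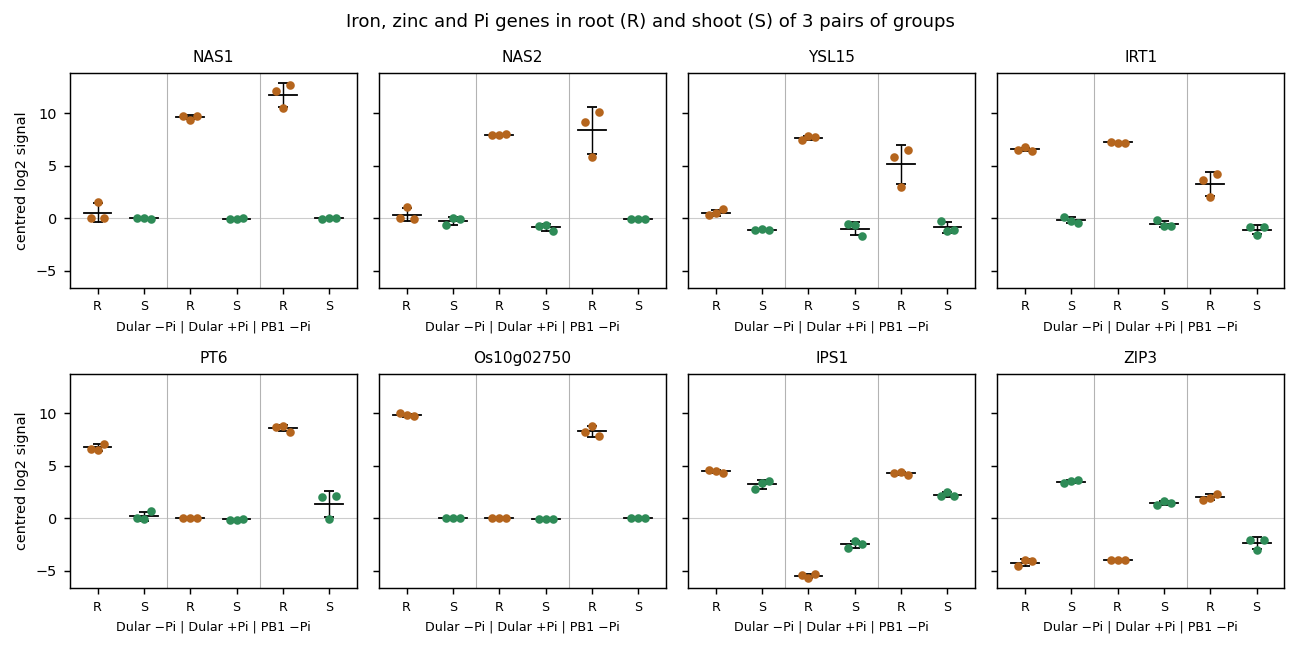
Centred log2 signal of 8 genes in root (R) and shoot (S) of Dular at −Pi, Dular at +Pi and PB1 at −Pi (dots, 1 per array, with mean and SD). NAS1, NAS2 and YSL15 were lower in Dular root at −Pi than in the other 2 root groups. PT6 and Os10g02750 were high in both root groups at −Pi, and ZIP3 took opposite sides in Dular and PB1.

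Further genes had a larger root bias at −Pi. PIN5 read 3.46, 4.23 and 3.86 in root and -0.63, -0.65 and -0.65 in shoot at −Pi, and 1.06, 1.57 and -0.29 in root at +Pi (difference of contrasts 3.05 ± 0.52, adjusted p = 0.000882). WOX11 gave 3.12 ± 0.50 (adjusted p = 0.000496) and CESA6 1.27 ± 0.30 (adjusted p = 0.0121), the second not called with the third +Pi root array alone in its group (adjusted p = 0.0727). In LOX1.1 (5.64 ± 1.27, adjusted p = 0.00890) the change lay in shoot, with -5.18, -5.08 and -4.93 at −Pi and a mean of 0.26 at +Pi. This call was lost with only the 12 Dular arrays (adjusted p = 0.0807) and with that array alone (adjusted p = 0.0813). In the lignin list 6 of 24, in the jasmonate list 6 of 35 and in the cellulose synthase list 6 of 29 contrasts were larger toward root at −Pi, and 0, 0 and 1 smaller. The shares over all genes were 4.27% and 3.95%.

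The largest differences between the Pi levels included unnamed genes. LOC4336764, annotated as a naringenin 3-dioxygenase, read 0.17, 0.97 and 0.67 in root and -2.85, -4.99 and -3.84 in shoot at −Pi, with a difference of contrasts of 8.52 ± 1.13 (adjusted p = 6.93e-05). LOC9270308, annotated as a dirigent protein, read 6.30, 6.73 and 5.74 in root and 0.02, 0.00 and 0.00 in shoot at −Pi and averaged 0.01 in root at +Pi (6.22 ± 0.20, adjusted p = 2.51e-12). LOC4334663 (7.03), LOC4349647 (6.31) and LOC9271011 (6.28) also had positive differences. On the other side LOC4325750 (-5.39), LOC4349704 (-5.27) and LOC4324944 (-5.21) stayed between -0.20 and 0.03 in root at −Pi, and LOC4352083 (-5.06) was lower in root at both Pi levels. The call of LOC4349704 was lost without the third +Pi or the first −Pi root array (adjusted p = 0.0513 and 0.0501), and with the third +Pi root array alone in its group (adjusted p = 0.0778).

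PB1 was compared at the same Pi level. Between PB1 root and shoot at −Pi 9916 probe sets were called (17.3%), by gene 16.1% higher and 15.2% lower. Of the calls in Dular at −Pi, 5975 (62.2%) were called in the same direction in PB1, which is 60.3% of the PB1 calls, and 154 in the opposite one. The organ contrasts of the genotypes differed in 6339 probe sets (11.1%), 2998 above 0 (5.24%) and 3341 below (5.83%), and by gene in 18.4%, 8.98% above and 9.40% below. Without the second PB1 shoot array, which stood apart, 6361 were called. Both genotypes were read on the same array design, and the paper reports SNPs and InDels between them in genes affected by low Pi. The part of probe mismatches in these differences was not tested. The 3′ minus 5′ difference of actin was -0.34 ± 0.06 in PB1 root and 0.57 ± 0.04 in PB1 shoot at −Pi (SD, n = 3 each), a wider gap than in Dular, and its part in the comparison was not tested. Of the 6339, 1942 were called between the organs in Dular alone, 1905 in PB1 alone, 1722 in both in 1 direction, of which 1314 had the larger contrast in Dular, 154 in opposite directions and 616 in neither.

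Leaf regulators were among the genes with a larger organ contrast in Dular. YAB2 read -8.21, -8.20 and -8.00 in Dular root and -1.44, -1.25 and -0.23 in PB1 root, and its contrast was -8.94 in Dular and -1.61 in PB1 (difference -7.33 ± 0.74, adjusted p = 1.52e-06). GLK2 (-9.65 against -4.70, difference -4.96), SWEET11 (-8.75 against -1.98, difference -6.77) and RCA (-9.03 against -4.26, difference -4.77) went the same way. Other GLK2 probe sets gave smaller gaps, the narrowest -5.26 in Dular and -3.80 in PB1. Shoot values of RCA and GLK2 were close in both genotypes, with means of 1.42 for RCA and 1.90 for GLK2 in Dular, against 1.95 and 2.23 in PB1. The photosynthesis list had 6 of 13 contrasts further below 0 in Dular and none above, against 9.40% and 8.98% over all genes.

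Of 16 iron and phytosiderophore genes, the organ contrast was called higher in Dular than in PB1 in 2 and lower in 6. Over all genes the shares were 8.98% and 9.40%. The 4 named here had contrasts above 0 in both genotypes. NAS1 read 12.10, 10.47 and 12.63 in PB1 root at −Pi, and its organ contrast was 0.56 in Dular and 11.77 in PB1 (difference -11.21 ± 0.88, adjusted p = 8.27e-08). NAS2 (0.58 in Dular and 8.41 in PB1, difference -7.83 ± 1.30, adjusted p = 0.000264) and YSL15 (1.63 and 5.99, difference -4.36 ± 1.06, adjusted p = 0.00639) also had the larger contrast in PB1. IRT1 had the larger one in Dular (6.74 and 4.36, difference 2.37 ± 0.74, adjusted p = 0.0300). The IRT1 call was lost with array weights, with only the 12 −Pi arrays, and without either the first or second Dular root, the second PB1 root, the second or the third Dular shoot, or the first or the third PB1 shoot array (adjusted p 0.0503 to 0.0810). ZIP3, of the other metal list, took opposite sides. It was lower in root than shoot in Dular (-7.71) and higher in PB1 (4.36), a difference of -12.07 ± 1.22 (adjusted p = 1.57e-06). APY3 (-9.00 in Dular and 0.87 in PB1, difference -9.87) and ACO1, an enzyme gene of ethylene synthesis (-6.82 and 2.32, difference -9.14), were called lower in root in Dular and were not called in PB1, the call of the difference in ACO1 being lost with only the 12 −Pi arrays (adjusted p = 0.0504). In ACO1 the PB1 shoot arrays read 0.83, -7.28 and 1.15, the second again apart. PT1 had 0.77 in Dular and -3.59 in PB1 (difference 4.36, adjusted p = 1.51e-05), and on a second probe set 1.34 in Dular and -0.43 in PB1, whereas the difference was not called for PT6 (6.55 and 7.21, difference -0.66 ± 0.54) or PT2 (8.84 and 8.15, difference 0.69 ± 0.49).

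The remaining large genotype differences were in genes without a symbol. LOC107277424 read 8.89, 8.54 and 10.49 in Dular root and 0.03, 0.00 and 0.00 in Dular shoot, against 0.00, 0.33 and -0.01 in PB1 root (difference of contrasts 9.20 ± 1.32, adjusted p = 6.55e-05). LOC4334644 (7.89), LOC4334321 (6.97), LOC4343925 (6.92), LOC4326982 (6.63), LOC4349327 (6.60), LOC4339940 (6.57) and LOC4343986 (6.55) had contrasts further toward root in Dular. In LOC4343925, LOC4339940 and LOC4343986 the Dular contrast was -0.09 to -0.01, and the PB1 contrast was -6.93 to -6.56. LOC9270481, annotated as meiosis 5 (-9.71), LOC4327070 (-9.53), LOC4327617 (-9.21) and LOC9268392 (-9.19) lay on the other side. LOC9268392 read -10.65, -11.18 and -11.16 in Dular root and -1.46, -2.31 and -2.17 in PB1 root.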

How the data were processed

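RNA of 24 samples, from 2 tissues of 2 genotypes at 2 Pi levels, was hybridized to the Affymetrix rice genome array. The authors deposited log2 signals, normalized and summarized by GC-RMA in GeneSpring (version not given in the sources used here) and shifted so that every probe set has a median of 0 across arrays. Absolute levels and detection calls are therefore lost. No filter on low signals was applied. All 24 arrays were fitted as 8 group means with limma 3.58.1 in R 4.3.3 (lmFit, eBayes), and p-values were Benjamini-Hochberg adjusted over the 57258 probe sets left after 123 control probe sets. Calls needed an adjusted p of at most 0.05 and 2-fold. Depth does not apply to arrays, and 3 per group limit the precision. GEO's platform annotation paired 22436 probe sets with 1 gene, 95 with several and 34727 with none. Symbols came from RefSeq, and the first probe set of each of 17905 genes was used. The study names 45 genes by identifier, of which 40 were paired. Named genes were the 15 largest non-overlapping calls each way, up to 4 called members of each list, all Pi regulators and transporters, the genes the study names, and the 8 largest differences of contrasts each way. Members and lists were chosen with earlier results of these data known. Whether the same replicate number pairs root and shoot is not known. In Dular at −Pi, deviations from the group mean correlated at r -0.18 to 0.12 for same-numbered root and shoot arrays. For other numbers r was -0.21 to 0.28. With 3 arrays per group these values cannot decide it. The fit was tested on simulated data: the main contrast met the minimum share of changes recovered, whereas both differences of contrasts fell just short of it, and the minimum was afterwards kept for the main contrast alone. Alternatives were array centring, quantile normalization, a replicate block, no moderation, array weights, fewer arrays, other thresholds, other probe sets and leaving out each array. Sequences were not used here.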

Additional observations from a re-analysis of the deposited data

Results flagged for a closer look

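The organ contrast of Dular at −Pi differed from that at +Pi in 2731 probe sets and from that of PB1 at −Pi in 6339, each by the limma test of the difference itself. Every difference below is log2 root minus shoot in Dular at −Pi, minus the same at +Pi or in PB1 at −Pi.

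Between the Pi levels, leaf genes had negative differences: RCA -3.95, GLO5 -3.36, RCABP89 -2.59, LFNR1 -2.50, CHLH -2.34 (opposite in sign on a second probe set), RCABP69 -2.24, RBCS-C -1.88 and GLK1 -1.86, with PDX12 at -4.98. The iron genes NAS1 (-9.10), NAS2 (-8.26) and YSL15 (-7.03) were the most negative of the named ones. Positive differences were found for Os10g02750 (9.80), Os03g40670 (7.13), PT6 (6.45), LOX1.1 (5.64), Os12g12590 (4.65), IPS1 (4.25), WOX11 (3.12), PIN5 (3.05), Os01g52230 (3.01), Os08g20420 (2.50) and CESA6 (1.27). Among genes without a symbol, LOC4336764 (8.52), LOC4334663 (7.03), LOC4349647 (6.31), LOC9271011 (6.28) and LOC9270308 (6.22) were positive, and LOC4325750 (-5.39), LOC4349704 (-5.27), LOC4324944 (-5.21) and LOC4352083 (-5.06) negative.

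Between Dular and PB1 at −Pi, ZIP3 (-12.07), NAS1 (-11.21), APY3 (-9.87), ACO1 (-9.14), NAS2 (-7.83), YAB2 (-7.33), SWEET11 (-6.77), GLK2 (-4.96), RCA (-4.77) and YSL15 (-4.36) were negative, and PT1 (4.36) and IRT1 (2.37) positive. LOC9270481 (-9.71), LOC4327070 (-9.53), LOC4327617 (-9.21) and LOC9268392 (-9.19) were negative as well. LOC107277424 (9.20), LOC4334644 (7.89), LOC4334321 (6.97), LOC4343925 (6.92), LOC4326982 (6.63), LOC4349327 (6.60), LOC4339940 (6.57) and LOC4343986 (6.55) were positive.

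A control probe set for a Magnaporthe elongation factor, outside the main measurement, averaged 2.21 in Dular root at +Pi, against 0.09 in Dular root at −Pi. On this probe set the signal was on 2 of the 3 arrays. Another probe set of the factor read 0.48 on the third array and 0.48 on the second Dular root array at −Pi. The part of the fungal signal in the differences between the Pi levels was not tested beyond the counts given for the third array alone.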

How the results depend on the processing

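The count between Dular root and shoot at −Pi was 9362 to 9670 when each array was left out in turn, against 9601, the count for the contrast at −Pi against +Pi was 2322 to 2714, against 2731, that for Dular against PB1 was 5886 to 6531, against 6339, and of the 676 list genes 267 to 279 were called, against 272. With adjusted p alone the 3 counts were 16916, 4921 and 10824, and at 4-fold 5330, 1065 and 2642. The organ contrast at +Pi had 32210 calls with adjusted p alone, 24327 of them higher in root, against 9266 with 2-fold required as well. After quantile normalization the 3 counts were 9829, 2294 and 6310. With only the 12 arrays of the groups compared, the contrast at −Pi against +Pi had 2648 calls and that for Dular against PB1 had 5638. With array weights the contrast at −Pi against +Pi had 4234 calls, but that estimate stopped before convergence, with weights of 4.65e-05 to 56.6. Among probe sets with 1 gene the 3 counts were 6580, 1980 and 4359, fewer because 22436 were tested. With the third Dular root array at +Pi alone in its group, chosen after seeing the data, 1978 probe sets were called (888 above and 1090 below 0). It is assumed there that the lone array varies like those of the other groups. With a replicate block the counts were 9604, 2701 and 6315, and 273 list genes, and no named gene changed its call. Whether the samples share more than a number is not known. Other probe sets of a gene turned the sign in GLO1 (0.71), HAK5 (0.076) and PT8 (2.29 and 2.28). List medians moved most for expansins (0.23 after quantile normalization, 0.36 before), laccases and lignin (0.30 without the second Dular shoot array at −Pi, 0.55 with it), and the study's galactolipid genes (-0.17 after quantile normalization, 0.22 before). PDS (-0.93), CDKB2-1 (0.96) and Os01g19390 (0.77) were short of 2-fold with array weights, and NAS1 (1.55) passed it. The causes were not tested. Values are limited by the centring, which hides whether a low signal lay above background.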
